A study of Mus musculus with 36 samples.

Results

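The 8 complement genes followed here were measured across fibroblasts cultured alone or beside pancreatic tumour lines: the components C1ra, C4b, C3, Cfb and Cfd, the soluble inhibitor Serping1, and the surface regulators Cd55 and Cd59a. They were chosen by name, as the genes of the count table that carry these 8 symbols, out of 39017 genes in all. The choice was made with earlier results of these data known. The RNA sequenced came from mouse pancreatic fibroblasts of strain C57BL/6, and each of the 9 groups held 4 libraries. One group was the mono-culture. For the other 8 groups, fibroblasts shared a dish with a GFP-carrying tumour line for 48 h, touching it, and were recovered by fluorescence sorting against GFP. Of these lines, 7 are called sub-clones of a tumour in the labels (clones E, H, K, M, N, T and V), each therefore a single clone, and 1 is KPC1, whose origin is not explained in the labels. No genetic change or drug treatment of the fibroblasts is given, and the labels do not say whether fibroblasts cultured alone also passed through the sorter, so an effect of sorting and an effect of the tumour cells cannot be told apart in comparisons with the mono-culture. Nor do they say whether the 4 libraries of a group came from separate cultures, so p-values measure the spread between these libraries.

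Complement is a cascade of plasma proteases and binding proteins that tags targets for uptake, draws in immune cells and can open pores in membranes. The classical pathway starts with C1, whose protease subunits C1r and C1s cleave C4 and C2. The alternative pathway uses factor B and factor D, and both routes meet at C3. Regulators hold the cascade in check: C1 inhibitor blocks the C1 proteases, CD55 speeds the decay of the enzymes that cleave C3, and CD59 blocks the pore. The liver supplies most plasma complement, and fibroblasts also make several components, and C3 is one of the genes often used to describe cytokine-producing fibroblasts.

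Library totals ranged from 12532122 to 21985538 counts over the 36 libraries. Summed over 9 fibroblast markers, expression was 21200 to 23100 CPM (counts scaled to library size and, between libraries, by TMM) in mono-culture, and all 9 were detected in each group. With clones H and T and KPC1 it was lower, at 15100 to 19200, 16500 to 18300 and 12700 to 16400 CPM. With clone V it ranged from 10900 to 21600 CPM, and with clones K and M the medians, 27200 and 26600 CPM, were above the mono-culture. The markers in it split: Col1a2, Col3a1, Dcn, Lum and Pdgfra fell in 4 co-cultures each and Col1a1 in 2, while Pdgfrb rose in 7, Thy1 in 6 and Vim in 3. The summed level of 12 epithelial markers was 2.74 to 4.18 CPM in mono-culture and 20.5 to 803 CPM in the co-cultures, lowest in median with clone V (82.2 CPM) and highest with clone N (518 CPM). Within it Krt8, Krt18 and Krt19 rose in 8 of 8 co-cultures, while Epcam had at most 9 counts in any library. Summed over 9 macrophage markers, levels were 5.63 to 33.5 CPM. Among them Cd14 (up to 369 counts in a library) rose in 2 co-cultures and Cd68 (up to 306) in 4. Lyz2 (up to 82) fell in 7 and Csf1r (up to 41) in 1. The rest were not tested, with at most 9 counts of Fcer1g, 3 of Ptprc, 2 of Tyrobp, 2 of Aif1 and 1 of Adgre1 in any library. Whether RNA of tumour cells took part in any value below was not tested. In bulk RNA, fewer cells of a type and less RNA per cell cannot be told apart.

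**Figure D1:**
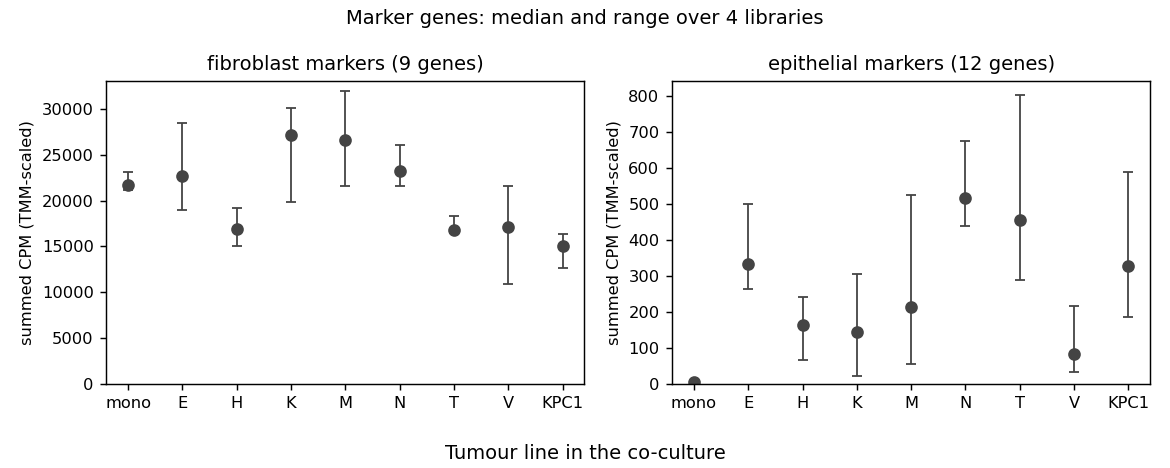
Summed CPM (TMM-scaled, linear axes) of 9 fibroblast markers (left) and 12 epithelial markers (right) in fibroblasts alone (mono) and in the 8 co-cultures. Points are the medians of 4 libraries and bars run from the lowest to the highest library; epithelial markers were at most 4.18 CPM in mono-culture and at least 20.5 CPM in each co-culture.

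All 8 genes are annotated as protein-coding in GENCODE M21 on GRCm38 (mm10). C4b (chr17:34728380-34743882, minus strand), Cfb (chr17:34856374-34862518, minus strand) and C3 (chr17:57203970-57228136, minus strand) share a chromosome. Serping1 (chr2:84765387-84775444, minus strand) and Cd59a (chr2:104095801-104115354, plus strand) share another. C1ra lies at chr6:124512405-124523443 (plus strand), Cfd at chr10:79890853-79892655 (plus strand) and Cd55 at chr1:130439027-130462744 (minus strand). RefSeq promoter windows on GRCm38.p6 (250 bases before to 50 after the start of a gene) were matched for 5 of the 8, C1ra, C3, Cfd, Cd55 and Cd59a. They were searched on both strands for 5 motifs: NF-kappaB (GGG, then 2 bases of any kind, then TTTCC), STAT (TTCNNNGAA), interferon response (GAAA, then 2 bases of any kind, then GAAA), C/EBP (TTNNGCAA) and AP-1 (TGANTCA). The bases before the start are shown for C3 and Cd59a, the members with a match there. Both fell in co-culture (below), as did C1ra, without a match before its start, and Serping1, without a window. Whether a match bears on a fall was not tested. Capitals mark the match, to C/EBP on the minus strand in C3 and to the interferon response motif in Cd59a.
C3, chr17:57228137-57228386, minus strand: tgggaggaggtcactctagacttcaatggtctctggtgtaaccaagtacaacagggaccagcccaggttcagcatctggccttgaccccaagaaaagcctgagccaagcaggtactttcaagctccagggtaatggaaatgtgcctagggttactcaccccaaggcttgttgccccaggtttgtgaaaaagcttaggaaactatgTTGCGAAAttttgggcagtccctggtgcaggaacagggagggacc
Cd59a, chr2:104095551-104095800, plus strand: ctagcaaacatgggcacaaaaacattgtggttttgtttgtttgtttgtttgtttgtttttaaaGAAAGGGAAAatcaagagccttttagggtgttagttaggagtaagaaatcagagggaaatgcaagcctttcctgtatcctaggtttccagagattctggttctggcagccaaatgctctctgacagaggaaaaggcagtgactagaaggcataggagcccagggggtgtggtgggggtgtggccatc
The match in C3 began 45 bases before the start and that in Cd59a 187 bases before it. A C/EBP match was in 10.8% of all 32851 windows of this length and an interferon response match in 3.44%. C1ra had 1 C/EBP and 1 STAT match, both after the start (STAT matches were in 8.3% of windows). No match to NF-kappaB (1.63% of windows) or AP-1 (7.81%) was in these 5 windows. Such matches describe letters and not binding.

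Of the 8 genes, 5 had enough counts to be tested, namely C1ra, C4b, Serping1, C3 and Cd59a, and the other 3 were near or at 0. C3 fell in each of the 8 co-cultures, by 4.04-fold to 27.8-fold. C1ra fell in 6, Cd59a in 6 and Serping1 in 4, most with clones H, T and V and with KPC1. C4b went both ways: it rose with clones E and N and fell with clone H and KPC1. Tests were edgeR quasi-likelihood F-tests on 14439 genes with Benjamini-Hochberg adjusted p under 0.05, and the 8 comparisons share the mono-culture libraries.

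Counted by line, 5 of the 5 tested members were lower with clone H, where 26.4% of all genes tested were lower, and 5 with KPC1, where 28.5% were. With clone T 4 were lower (24.7% of all genes) and with clone V 4 (28.9%). With clone E 3 were lower (15.5% of all genes) and 1 higher (16.5%), and with clone N 3 were lower (19.2%) and 1 higher (19.7%). Clones K and M gave 1 lower member each, C3 in both, against 8.69% and 10.8% of all genes. Libraries lay wholly below the mono-culture for 4 members with clones H, T and V and with KPC1 (25.3%, 24.9%, 26.5% and 26.2% of all genes), for 3 with clone E (19.1%) and for 2 with clones N, K and M (20.4%, 14.6% and 16.9%), and wholly above it for C4b with clone E (18.1%). The median log2 fold change of the 5 tested members ran from -0.30 (clone K) and -0.53 (clone M) through -0.78 (clone N), -0.83 (clone E) and -1.62 (clone T) to -2.14 (clone H), -2.27 (KPC1) and -2.32 (clone V), while the median over all genes tested lay between -0.00898 and 0.0115. Of these members 3 had few counts and the genes differ in precision: C4b had 0 to 143 counts per library, Serping1 5 to 104 and Cd59a 2 to 43, against 5 to 1214 for C3 and 358 to 3535 for C1ra.

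**Figure D2:**
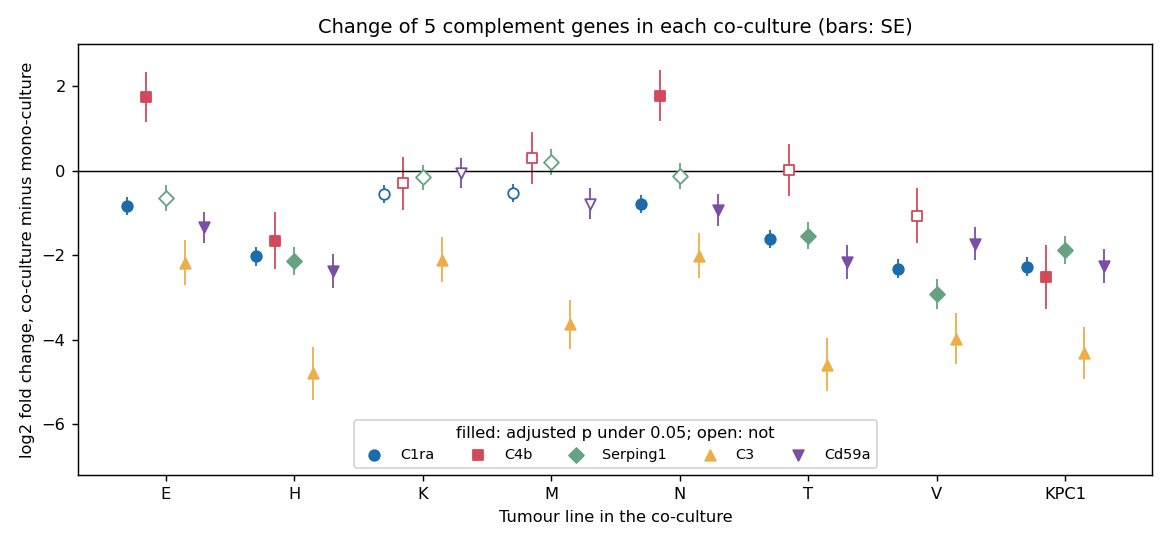
Log2 fold change of the 5 tested complement genes in each co-culture against mono-culture, with SE bars; filled symbols had an edgeR adjusted p under 0.05 and open symbols did not. C3 lies lowest in each co-culture, from -2.02 with clone N to -4.80 with clone H, and C4b is above 0 and filled with clones E and N only.

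C1ra encodes the C1r protease of the classical pathway and was the most abundant member. In RPKM (reads per kilobase of gene, scaled for library size), the scale on which genes can be compared, its mean level in mono-culture was 56.5 ± 3.63 (SD, n = 4), against 9.65 ± 3.38 for C3, 2.16 ± 0.376 for Serping1, 1.13 ± 0.277 for Cd59a and 0.262 ± 0.198 for C4b. C1ra stayed the highest of the 5 in each group, down to 10.6 ± 3.70 RPKM with clone V. C4b, the lowest in mono-culture, stood above Cd59a with clone E (0.852 ± 0.257 against 0.425 ± 0.136 RPKM), clone N (0.873 ± 0.374 against 0.561 ± 0.314 RPKM) and, by less than the SD, clone T (0.257 ± 0.119 against 0.238 ± 0.118 RPKM).

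The 4 mono-culture libraries held C1ra at 172, 159, 152 and 162 CPM. With clone V the values were 18.2, 43.8, 28.2 and 39.0 CPM, and with KPC1 28.1, 24.3, 37.4 and 43.5 CPM. These were the lowest groups, and neither overlapped the mono-culture. Clone H gave 35.4, 43.3, 31.2 and 47.9 CPM, and clone T gave 46.3, 39.9, 51.4 and 71.8 CPM. Both lay wholly below clones E, K, M and N, apart from the highest clone T library, which was above the lowest clone E library (69.5, 119.6, 88.8 and 84.3 CPM). Clone N gave 79.9, 112, 94.3 and 88.8 CPM. Clone K gave 83.1, 117, 119 and 118 CPM, and clone M gave 122, 130.2, 91.8 and 104 CPM. C1ra was thus below each mono-culture library in each library of the 8 co-cultures, in comparisons where 14.6% (clone K) to 26.5% (clone V) of all genes tested lay wholly below.

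The log2 fold change of C1ra was -2.32 with clone V (SE 0.223, edgeR adjusted p = 8.3e-10), -2.27 with KPC1 (SE 0.223, adjusted p = 1.2e-09), -2.03 with clone H (SE 0.220, adjusted p = 1.2e-08) and -1.62 with clone T (SE 0.217, adjusted p = 4.9e-07). It was smaller with clone E, at -0.83 (SE 0.212, edgeR adjusted p = 0.003), and with clone N, at -0.78 (SE 0.212, adjusted p = 0.004). With clones K and M the values of -0.56 (edgeR adjusted p = 0.06) and -0.53 (adjusted p = 0.07) missed the threshold, with 95% intervals of -0.98 to -0.15 and -0.94 to -0.11. Here and below the 95% intervals are normal approximations from the SE, without adjustment over genes, and are narrower than the F-test implies. Both passed when edgeR was fitted to the 8 libraries compared alone (adjusted p = 0.0037 with clone K and 0.0021 with clone M). In the order of mean levels, from mono-culture (161 CPM) through M, K, N, E, T and H to KPC1 and V (32.3 CPM), 1 of 8 neighbouring pairs passed the test: clone E (90.6 ± 21.04 CPM) above clone T (52.3 ± 13.8 CPM, SD, n = 4 each), by 0.79 on the log2 scale (edgeR adjusted p = 0.018), where 10.6% of all genes tested passed. Of the 21 pairs of clones, 13 passed for C1ra, and all 13 set E, K, M or N against H, T or V, apart from clone T above clone V (log2 difference 0.70, edgeR adjusted p = 0.019). Across these 21 pairs the share of all genes tested that passed ranged from 0.388% to 57.9%.

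**Figure D3:**
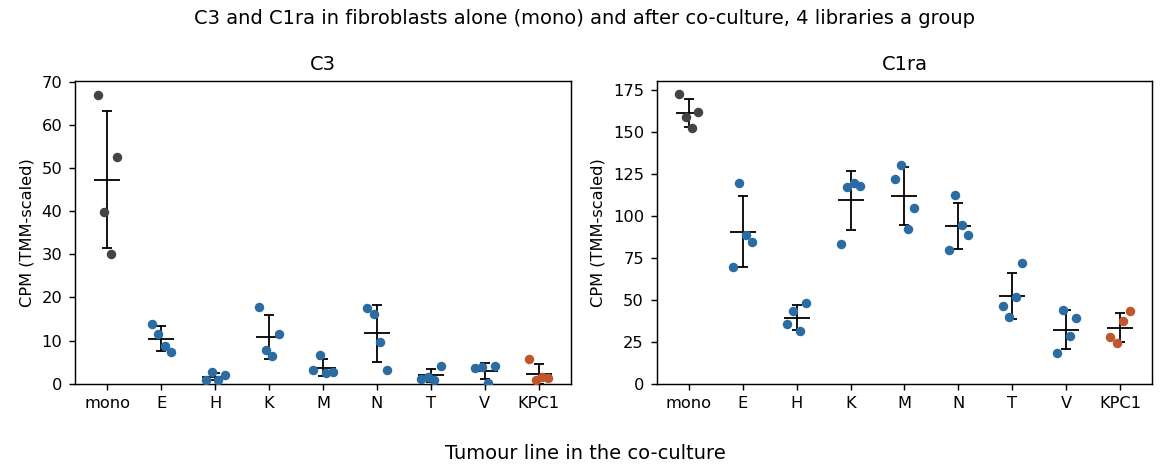
CPM (TMM-scaled, linear axes from 0) of C3 (left) and C1ra (right) in fibroblasts alone (mono, grey), with the 7 clones (blue) and with KPC1 (orange). Points are libraries, horizontal ticks group means and bars SD (n = 4); the mono-culture libraries, at 30.02 to 66.8 CPM for C3 and 152 to 172 CPM for C1ra, lie above each co-culture library.

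C4b encodes complement C4, which C1s cleaves to start the classical enzyme that cuts C3. It had 2.70, 1.05, 0.304 and 1.33 CPM in mono-culture, a spread of 4 to 49 counts. With clone E it had 3.64, 6.85, 3.86 and 3.95 CPM, each library above the highest of the mono-culture. With clone N it had 6.97, 5.36, 3.89 and 2.49 CPM, and 3 of 4 libraries were above the mono-culture. The mean levels were 4.58 ± 1.52 CPM with clone E, 4.68 ± 1.92 CPM with clone N and 1.34 ± 0.9999 CPM in mono-culture (SD, n = 4 each). C4b rose by 3.35-fold with clone E (log2 fold change 1.74, SE 0.600, edgeR adjusted p = 0.026) and by 3.42-fold with clone N (1.78, SE 0.601, adjusted p = 0.019). The clone E call was lost on leaving out mono-culture replicate 2, 3 or 4 or clone E replicate 2 (edgeR adjusted p up to 0.088), and the clone N call on leaving out mono-culture replicate 2 or 3 or clone N replicate 1 (adjusted p up to 0.07).

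At the other end, clone H libraries held C4b at 0.120, 0.454, 0.206 and 0.872 CPM and KPC1 libraries at 0, 0, 0.246 and 0.684 CPM. With KPC1 2 libraries had no count and 1 overlapped the mono-culture. The log2 fold change was -2.53 with KPC1 (SE 0.757, edgeR adjusted p = 0.005) and -1.66 with clone H (SE 0.681, adjusted p = 0.04). Without KPC1 replicate 4 the KPC1 value was -4.01, and without clone H replicate 4 the clone H value was -2.33. In limma-trend on log2(RPKM + 1) both calls were lost (adjusted p = 0.051 with KPC1 and 0.12 with clone H). The clone H call was also lost without a filter on low counts (edgeR adjusted p = 0.075) and on leaving out 5 of the 8 libraries in turn, namely mono-culture replicate 1 or 4 or clone H replicate 1, 2 or 3 (adjusted p up to 0.21). In between, C4b was at 0.407, 1.40, 0.109 and 0.658 CPM with clone V (log2 fold change -1.06, 95% interval -2.35 to 0.22). It was at 1.79, 0.845, 1.16 and 0.630 CPM with clone K (-0.30, -1.52 to 0.93), at 0.558, 2.43, 2.06 and 1.64 CPM with clone M (0.29, -0.92 to 1.5) and at 0.898, 1.37, 1.04 and 2.21 CPM with clone T (0.02, -1.20 to 1.24). These 4 groups overlapped the mono-culture. On leaving out clone V replicate 2 the clone V value was -1.80 and passed in edgeR (adjusted p = 0.04).

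The differences between co-cultures do not use the mono-culture. C4b was higher with clone E than with clone H by 3.40 on the log2 scale (edgeR adjusted p = 0.00034), than with clone V by 2.81 (adjusted p = 0.0008), than with clone K by 2.04 (adjusted p = 0.026) and than with KPC1 by 4.27 (adjusted p = 4.7e-05). Against clone N, the log2 differences were -3.43 for clone H (edgeR adjusted p = 0.00027) and -2.07 for clone K (adjusted p = 0.015), and clone N was above clone V by 2.84 (adjusted p = 0.00069) and above KPC1 by 4.30 (adjusted p = 6.1e-05). Clones E and N were not separated from each other (log2 difference -0.03, edgeR adjusted p = 0.99), nor by the test from clone T (1.73 and 1.76, adjusted p = 0.06 and 0.062) or clone M (clone E minus clone M 1.45, adjusted p = 0.11; clone M minus clone N -1.48, adjusted p = 0.078). No neighbouring pair of the 8 in the order N, E, M, T, mono-culture, K, V, H, KPC1 passed. Its near-identical copy C4a had 2 to 24 counts per library and passed in no co-culture (log2 fold changes -0.66 to 0.79), and how reads shared by both copies were assigned is not given in the sources used here, so the split between C4b and C4a is uncertain.

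**Figure D4:**
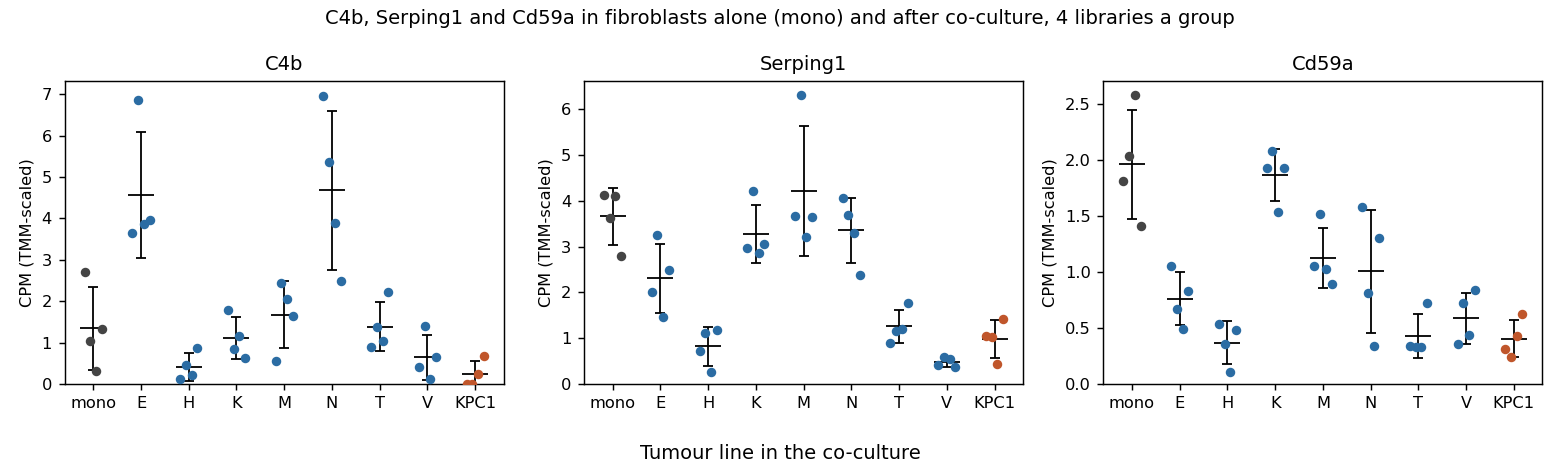
CPM (TMM-scaled, linear axes from 0) of C4b, Serping1 and Cd59a in fibroblasts alone (mono, grey), with the 7 clones (blue) and with KPC1 (orange). Points are libraries, horizontal ticks group means and bars SD (n = 4); C4b is highest with clones E and N, Serping1 lowest with clone V, and Cd59a with clone K overlaps the mono-culture.

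Serping1 encodes C1 inhibitor, which binds and inactivates C1r and C1s. It had 4.13, 3.63, 4.11 and 2.79 CPM in mono-culture. The lowest group was clone V, with 0.407, 0.577, 0.545 and 0.359 CPM. Next came clone H with 0.718, 1.11, 0.258 and 1.18 CPM, and KPC1 with 1.05, 1.03, 0.431 and 1.43 CPM. These 3 groups, and clone T at 0.898, 1.15, 1.20 and 1.77 CPM, lay wholly below the mono-culture. Serping1 fell by 7.60-fold with clone V (log2 fold change -2.93, SE 0.356, edgeR adjusted p = 4e-08), 4.41-fold with clone H (-2.14, SE 0.333, adjusted p = 3.2e-06), 3.68-fold with KPC1 (-1.88, SE 0.330, adjusted p = 1.4e-05) and 2.90-fold with clone T (-1.53, SE 0.322, adjusted p = 0.00021).

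With the other 4 clones Serping1 did not pass the test. Clone M gave 3.66, 6.31, 3.21 and 3.65 CPM, clone N gave 4.05, 3.68, 3.29 and 2.38 CPM, and clone K gave 2.97, 4.22, 2.85 and 3.06 CPM. All 3 overlapped the mono-culture, with 95% intervals of the log2 fold change of -0.39 to 0.80, -0.72 to 0.47 and -0.76 to 0.43. Clone E was at 2.01, 3.26, 1.47 and 2.49 CPM, 3 libraries below the mono-culture and 1 within it, and gave -0.66 on the log2 scale (SE 0.308, edgeR adjusted p = 0.1) that passed in limma-trend on log2(RPKM + 1) (adjusted p = 0.017). No neighbouring pair of the 8 in the order M, mono-culture, N, K, E, T, KPC1, H, V passed, the nearest being clone E above clone T (log2 difference 0.88, edgeR adjusted p = 0.076), while 12 of 21 pairs of clones did.

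C3, the component on which all pathways converge, showed the largest falls. It had 66.8, 39.8, 30.02 and 52.6 CPM in mono-culture, from 395 to 1214 counts. Clone E gave 13.9, 11.6, 8.83 and 7.46 CPM, clone K gave 17.8, 7.93, 6.34 and 11.6 CPM, and clone N gave 17.6, 16.2, 9.60 and 3.29 CPM. These were the highest co-cultures, and each of their libraries was below the lowest of the mono-culture. Clone M gave 3.23, 6.74, 2.46 and 2.69 CPM, and clone V gave 3.66, 3.80, 0.272 and 4.25 CPM. Clone T gave 1.07, 1.54, 0.983 and 4.21 CPM, clone H gave 0.958, 2.68, 0.929 and 2.14 CPM, and KPC1 gave 5.74, 0.784, 1.48 and 1.31 CPM. No co-culture library reached the mono-culture range, and single libraries stood apart with clone V (replicate 3, lowest) and KPC1 (replicate 1, highest).

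The fold change of C3 was 27.8-fold lower with clone H (log2 -4.80, SE 0.631, edgeR adjusted p = 3.4e-07), 24.2-fold lower with clone T (-4.60, SE 0.626, adjusted p = 7.6e-07), 19.9-fold lower with KPC1 (-4.32, SE 0.614, adjusted p = 7.7e-07), 15.8-fold lower with clone V (-3.98, SE 0.598, adjusted p = 1.8e-06) and 12.5-fold lower with clone M (-3.64, SE 0.589, adjusted p = 3.2e-05). With clones E, K and N it was 4.51-fold (-2.17, SE 0.539, edgeR adjusted p = 0.0025), 4.32-fold (-2.11, SE 0.536, adjusted p = 0.0052) and 4.04-fold lower (-2.02, SE 0.535, adjusted p = 0.0034). Of all genes tested, 3.19% were lower in each of the 8 co-cultures, as C3 was. The fall with clones K and M was measured in libraries whose summed fibroblast markers were 19900 to 30100 and 21600 to 32000 CPM, against 21200 to 23100 CPM in mono-culture. These sums were 19000 to 28500 CPM with clone E and 21600 to 26100 CPM with clone N. They were 15100 to 19200 CPM with clone H, 16500 to 18300 with clone T, 10900 to 21600 with clone V and 12700 to 16400 with KPC1. Whether the share of fibroblast RNA took part in the falls of C3 was not tested. All 8 calls held on leaving out each library in turn, with the value moving most without KPC1 replicate 1 (log2 fold change -5.31) and without clone T replicate 4 (-5.30). In the order mono-culture, N, K, E, M, V, KPC1, T, H, the step from mono-culture (47.3 ± 15.9 CPM) to clone N (11.7 ± 6.59 CPM, SD, n = 4 each) was the 1 of 8 that passed. Clone M minus clone N was -1.62 on the log2 scale (edgeR adjusted p = 0.044, with 19.2% of all genes passing), while clone E minus clone M (1.47, adjusted p = 0.093) and clone K minus clone M (1.53, adjusted p = 0.17) missed the threshold. In all, 10 of 21 pairs of clones passed.

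Cfb and Cfd, the proteases of the alternative pathway, were too low to test. Cfd, also called adipsin and best known from fat cells, had 0 counts in 36 of 36 libraries, which allows a level of up to 0.00458 CPM over the 654401004 counts of all libraries together (3 counts, counting error only). Cfb had 13 counts in all, spread over 10 libraries, with 0 in each mono-culture, clone K and clone V library and at most 3 counts, in 1 clone N library. Over 6107 bases, nearly its whole length, Cfb overlaps the annotated gene Gm20547 on the same strand, which had 0 counts in each library. Reads lying in both can be left out by a counter, and the setting used is not given in the sources used here, so the Cfb counts may be too low.

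The surface regulators were also scarce. Cd55, decay-accelerating factor, had 20 counts in all, in 15 libraries with at most 2 counts in any, and was not tested. Clone M was the only group with a count of Cd55 in each library (1, 2, 2 and 1 counts), and clone N had none. Cd59a, which encodes the membrane anchored inhibitor of the pore, had 1.82, 2.04, 2.58 and 1.42 CPM in mono-culture. With clone K it stayed at 1.93, 2.08, 1.53 and 1.93 CPM, within the mono-culture range (log2 fold change -0.06, 95% interval -0.76 to 0.63). Clone H gave 0.539, 0.353, 0.103 and 0.480 CPM, KPC1 gave 0.316, 0.241, 0.431 and 0.627 CPM, and clone T gave 0.337, 0.330, 0.328 and 0.719 CPM. These 3 groups lay wholly below the mono-culture, as did clone V at 0.356, 0.722, 0.436 and 0.837 CPM and clone E at 1.05, 0.671, 0.491 and 0.8292 CPM.

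Cd59a fell by 5.22-fold with clone H (log2 fold change -2.38, SE 0.403, edgeR adjusted p = 1.1e-05), 4.77-fold with KPC1 (-2.25, SE 0.404, adjusted p = 1.8e-05), 4.50-fold with clone T (-2.17, SE 0.399, adjusted p = 4e-05), 3.30-fold with clone V (-1.72, SE 0.385, adjusted p = 0.0003) and 2.54-fold with clone E (-1.34, SE 0.376, adjusted p = 0.0063). Clone N, at 1.58, 0.812, 0.336 and 1.30 CPM, overlapped the mono-culture and changed by -0.93 on the log2 scale (SE 0.368, edgeR adjusted p = 0.044). That call was lost in edgeR without a filter on low counts (adjusted p = 0.071), with a fit of the 8 libraries compared alone (0.075) and on leaving out mono-culture replicate 1, 2 or 3 or clone N replicate 2 or 3 (adjusted p up to 0.17). Clone M, at 1.05, 1.52, 1.03 and 0.895 CPM, gave -0.79 on the log2 scale (95% interval -1.51 to -0.07, edgeR adjusted p = 0.13), and passed in limma-trend on log2(RPKM + 1) (adjusted p = 0.014) and in edgeR on the 8 libraries compared alone (0.046). No neighbouring pair of the 8 in the order mono-culture, K, M, N, E, V, T, KPC1, H passed, and 8 of 21 pairs of clones did, among them clone K above clone T by 2.11 (edgeR adjusted p = 0.00011) and above clone V by 1.66 (adjusted p = 0.00048), and clones E and H against clone K at -1.28 (adjusted p = 0.023) and -2.32 (adjusted p = 2e-05), on the log2 scale.

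Whether the level of a member depended on the clone was tested with 1 F-test over the 7 clones. All 5 tested members passed, against 67.5% of all genes tested. The mean levels of the highest and lowest clone were 112 CPM (M) and 32.3 CPM (V) for C1ra (edgeR adjusted p = 1.3e-08), 4.21 CPM (M) and 0.472 CPM (V) for Serping1 (8.4e-09), 1.87 CPM (K) and 0.369 CPM (H) for Cd59a (3e-05), 4.68 CPM (N) and 0.413 CPM (H) for C4b (3.9e-05), and 11.7 CPM (N) and 1.68 CPM (H) for C3 (7e-05). The clone with the highest level was therefore M, K or N, and that with the lowest was H or V. Against the mean of the 7 clones, KPC1 was lower for 4 of 5 members, where 18.8% of all genes tested were lower: C4b at -2.64 (edgeR adjusted p = 0.0019), C1ra at -1.03 (4.2e-05), Cd59a at -0.91 (0.031) and Serping1 at -0.83 (0.014) on the log2 scale. C3 had a log2 difference of -0.99 that did not pass (95% interval -1.95 to -0.03, edgeR adjusted p = 0.11).

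Taken pair by pair, the number of tested members that passed differed between lines, as did the share of all genes tested that passed (in brackets). All 5 tested members passed between clones H and N (32.3% of all genes), K and KPC1 (56.1%) and N and KPC1 (35.3%). Between clone E and clones H and V 4 passed (31.6% and 42.2% of all genes), as between clone K and clones H, T and V (49.8%, 41.4% and 54.8%), clones H and M (51.1%), clones N and V (43.5%), and KPC1 and clones E and M (40.2% and 55.5%). For clone M against T and V (40.5% and 57.9%) and for clone N against T (8.53%) it was 3. It was 2 for clones E and K (11.5%), E and T (10.6%) and T and V (24%), and 1 for clones K and N (21.7%), clones M and N (19.2%) and clone T and KPC1 (5.35%). None passed between clones E and M (11.5%), E and N (1.27%), K and M (2.24%), H and T (7.58%) or H and V (0.388%), or between KPC1 and clones H (2.89%) and V (10.7%).

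Across the 36 libraries the log2 CPM of the tested members were related to each other with Pearson r of 0.406 (C4b with Cd59a) to 0.886 (C1ra with Serping1), as a description, since libraries share groups and scaling. Among 11694 genes with a mean of at least 2 CPM, the genes most like C1ra over these libraries were Pmp22 (r = 0.983), C1s (0.981) and Osr2 (0.964). Those most like C3 were Rspo3 (0.906), Cdkn1c (0.855) and Cxcl12 (0.852), and those most like C4b were Pros1 (0.824), Pamr1 (0.799) and Adk (0.795). For Serping1 they were Smim1 (0.933), Susd2 (0.930) and Fbln7 (0.927), and for Cd59a Echdc2 (0.892), Atp5j2 (0.885) and Tax1bp3 (0.884). The highest r was lowest for C4b, and no gene was named for more than 1 member.

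Of 53 other complement genes in the list used, 20 were tested, and 13 were at 0 in each library, C1qa, C1qb and C1qc among them. C1rb, Cd59b and Cd55b, close copies of C1ra, Cd59a and Cd55, were not tested. In any library they had at most 12, 2 and 0 counts. How reads shared with these copies were assigned is not given in the sources used here, as for C4a. Among the 20, those lower numbered 10 with clone H (26.4% of all genes tested), 9 with KPC1 (28.5%), 8 with clone V (28.9%), 7 with clone T (24.7%), 6 with clone E (15.5%), 6 with clone N (19.2%), 3 with clone M (10.8%) and 1 with clone K (8.69%). Those higher numbered 4 with clone M (12.2% of all genes tested), 2 with clone E (16.5%), 2 with clone N (19.7%) and 1 each with clones H (27.8%), K (10.4%), T (25%) and V (29.4%) and with KPC1 (30.5%). C1s, listed as C1s1 in current naming and the partner protease of C1r, fell from 311 ± 20.3 CPM to 44.0 ± 20.6 CPM with clone V (SD, n = 4 each) and was called lower in 6 co-cultures, not with K or M, as were C1rl, a C1r-like protease (34.7 ± 2.71 CPM in mono-culture, 6.999 ± 2.91 CPM with KPC1), and C8g, a subunit of the pore (1.095 ± 0.549 CPM in fibroblasts alone and 0.0991 ± 0.0598 CPM beside clone H). C8g was near the floor, with at most 25 counts in any library and 1 to 4 counts with clone H. The other listed genes of the terminal pathway, which forms the pore, were too low to test. In any library Hc had at most 13 counts, C9 3, C7 and C8a 1, and C6 and C8b 0. On leaving out each of 8 libraries in turn, the C1s call was lost in 6 edgeR fits with clone E (adjusted p up to 0.15) and 7 with clone N (up to 0.1), and the C8g call in 2 with clone E (up to 0.12) and 5 with clone N (up to 0.19). Colec10, a lectin that starts the lectin pathway, was lower in 7 (with clone M the call was lost in 7 of 8 edgeR fits that left out a library, adjusted p up to 0.12), at least 11.7-fold with clone T and at least 12.1-fold with clone V, where no library had more than 3 counts. Itgb2, a chain of the complement receptors on leukocytes, was lower in 6 (4.47 ± 1.09 CPM in mono-culture, 0.871 ± 0.228 CPM with clone N). Clu, which encodes clusterin, a soluble inhibitor of the pore, was higher in 8 of 8 (with clone V the call was lost in 4 of 8 edgeR fits that left out a library, adjusted p up to 0.14), from 4.77 ± 1.05 CPM in mono-culture to 19.4 ± 13.5 CPM with clone V and 574 ± 437 CPM with clone T, the line with the highest single library of epithelial markers (803 CPM) and the second highest median. The epithelial median was highest with clone N (518 CPM), where Clu was at 85.7 ± 9.21 CPM, and lowest with clone V (82.2 CPM). Leaving out 1 library moved the log2 fold change of Clu from 6.89 to 6.22 with clone T (replicate 1), from 4.11 to 3.18 with clone K (replicate 3), from 4.45 to 3.45 with clone M (replicate 3) and from 4.79 to 4.13 with KPC1 (replicate 1). Whether Clu came from the fibroblasts was not tested.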

How the data were processed

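RNA was sequenced from 36 libraries of mouse fibroblasts in 9 groups of 4. Per the labels, poly(A) RNA (200 ng) was made into libraries with a strand-specific kit and 14 PCR cycles and read as 76 bp pairs. The files the authors deposited hold unnormalized counts for 39017 genes, as whole numbers, and RPKM for 37746 genes, which match the counts after scaling to within 0.9997 to 1.0002. The submitters' processing notes name STAR, featureCounts, edgeR and the build mm10. Their versions, the strand setting and the treatment of reads in overlapping genes are not given in the sources used here. Library totals of 12532122 to 21985538 counts set the precision of low genes. No 2 libraries of a group agreed within sampling noise (lowest chi-square per degree of freedom 5.53).

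From the counts, edgeR 4.0.16 in R 4.3.3 gave CPM with TMM scaling and quasi-likelihood F-tests in 1 fit of all 36 libraries, after its expression filter, on 14439 genes, with Benjamini-Hochberg adjustment over all of them and a threshold of 0.05. RPKM served only to compare genes and in limma 3.58.1 as an alternative, on log2(RPKM + 1) and log2(RPKM + 0.1). DESeq2 1.42.0, other scalings and filters, the replicate number as a block, fits of the compared libraries alone and leaving out each library were the other alternatives. Scripts were tested on simulated data.

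The 8 members and the gene lists were chosen with earlier results of these data known. Other complement genes were named where called in 1 direction in at least 6 co-cultures or among the 4 largest called changes, and the 3 genes most like each member by Pearson r of log2 CPM (prior count 1) among genes with a mean of at least 2 CPM. Promoter windows were those of RefSeq on GRCm38.p6, 32851 in all. Protein sequences were not used here.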

Additional observations from a re-analysis of the deposited data

Results flagged for a closer look

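In 7 of 45 sets of 4 libraries (a member in a group), 1 library stood far from the other 3, with a gap to its nearest neighbour that took more of the whole range than the 95% limit of Dixon's test allows. About 1 in 20 sets does so by chance, or 2.25 of 45. For C1ra with clone K the gap was 0.941 of the range, with replicate 1 at 83.08 CPM and the others at 117.1 to 119.2 CPM. For C4b with clone E it was 0.901, with replicate 2 at 6.852 CPM against 3.637 to 3.954 CPM. Serping1 had replicate 2 highest in both of its sets, with clone K (0.851, 4.223 CPM against 2.854 to 3.058 CPM) and clone M (0.855, 6.313 CPM against 3.208 to 3.659 CPM). For C3 it was 0.853 with clone V, where replicate 3 was lowest (0.2723 CPM against 3.661 to 4.246 CPM), and 0.86 with KPC1, where replicate 1 was highest (5.744 CPM against 0.7835 to 1.478 CPM). For Cd59a with clone T it was 0.976, with replicate 4 at 0.7192 CPM against 0.3276 to 0.3368 CPM.

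The change against mono-culture differed among the 7 clones by the F-test for each tested member. The range of log2 fold changes over the clones was 1.79 for C1ra, 3.43 for C4b, 3.13 for Serping1, 2.78 for C3 and 2.32 for Cd59a. C4b was called in opposite directions against mono-culture, and these lines differed directly in edgeR: clone E minus clone H was 3.4 and clone E minus KPC1 4.27 on the log2 scale, and clone N minus clone H was 3.43 and clone N minus KPC1 4.3.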

How the results depend on the processing

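Of the counts of called members under an alternative, 201 were within 1.5 times the reported count and 25 were not. Requiring at least 10 counts in every library left C1ra as the 1 member tested, so counts became 1 with clones E, H, N, T and V, with KPC1, among the 7 clones and for KPC1 against the clones, and 0 with clones K and M. For clone K the count of 1 became 2 (C1ra added) at adjusted p under 0.1, with no scaling beyond library size, with the replicate block, in DESeq2, in limma-trend on log2(RPKM + 1) and log2(RPKM + 0.1), and with only the libraries compared. For clone M it became 2 at adjusted p under 0.1, with the replicate block and in limma-trend on log2(RPKM + 1), and 3 with only the libraries compared. Leaving out each library gave 2 to 4 for clone N (2 without mono-culture replicate 2 or 3) and 2 to 4 for KPC1 against the clones (2 without KPC1 replicate 3).

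Same-numbered libraries of a co-culture and the mono-culture did not deviate together (32 pairs, median r -0.0234, 5 over 0.1), so the numbers were not taken as pairs. Between co-cultures, same-numbered libraries did tend to deviate together (112 pairs, median r 0.143, 63 over 0.1). Libraries of other numbers had a median r of -0.0436 (336 pairs, 89 over 0.1). Deviations from a group mean cancel out within the group, so that lower value largely follows from the first and is not a separate check. The main tests between lines do not model what same-numbered libraries shared. With the replicate block, 5 members still passed among the 7 clones and 4 for KPC1 against the clones. With the replicate block, neighbouring groups called went from 2 to 4, C1ra passed with clones K and M (adjusted p = 0.024 and 0.035 in edgeR) and Serping1 with clone E (adjusted p = 0.044).

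Changes of sign were all in values not called. C4b with clone T was -0.0528 without scaling. Leaving out each library gave C4b -0.6373 to 0.2601 (clone K), -0.01462 to 0.8414 (clone M) and -0.3014 to 0.5748 (clone T), Cd59a -0.1921 to 0.09317 (clone K), Serping1 -0.05683 to 0.3177 (clone M) and -0.2523 to 0.01687 (clone N), and C8g -0.0635 to 0.4769 (clone M). The alternatives for C8g and the other non-member genes were chosen after seeing the data. Among single member values, 640 kept direction and call, 22 lost a call, 16 gained one and 10 changed sign. The causes were not tested. Low counts limit C4b, Serping1 and Cd59a, and Cfb, Cfd and Cd55 could not be compared at this depth.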
